A study of Homo sapiens with 4 samples.

Results

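Solute carriers are membrane proteins that move amino acids, sugars, metal ions, nucleosides, organic acids and other small solutes across the plasma membrane and the membranes of organelles. Most have many hydrophobic helices, and their mRNAs are translated at the endoplasmic reticulum, where the Sec61 channel and its partners thread each helix into the membrane. Codons for phenylalanine, leucine, isoleucine, methionine and valine all carry T at the second position, so the coding sequence of a membrane helix is rich in T at that position. In carcinoma cells several carriers, among them the leucine exchanger SLC7A5, the glutamine carrier SLC1A5 and the glucose carrier SLC2A1, are known for supplying nutrients to growth.

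The solute carrier mRNAs described here were chosen by gene symbol (SLC, a family number, A and a member number, in the GENCODE v44 annotation), without the SLC25A family of mitochondrial carriers, and selected on a summed count of 500 or more over the 4 libraries. The annotation held 341 protein-coding genes of that symbol pattern, 340 of them in the count table. After removal of 48 SLC25A genes, 292 remained, of which 121 reached the count limit and 171 did not. Of the 171 below the limit, 31 had no count in any library. Just outside the limit lay SLC46A1 with 471 counts, SLC9A5 with 417 and SLC35A1 with 415, and just inside it SLC16A10 with 510, SLC22A31 with 518 and SLC2A8 with 538. All 121 were tested, out of 14645 genes tested and 63677 in the table. The symbol pattern also took in 3 genes that are not carriers: SLC4A1AP, which encodes a nuclear protein first found as a partner of an anion exchanger, SLC7A6OS, named for lying opposite SLC7A6, and SLC2A4RG, a DNA-binding regulator of the gene of the glucose carrier SLC2A4. The remaining 118 were carriers by name. The family was picked with its ratio of immunoprecipitate to Input already known, so those ratios, and the calls made from them, are given as a description of the members and support nothing further.

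The libraries came from HCT116 cells, a line established from a human colorectal carcinoma, 48 h after transfection of a pcDNA3.1 plasmid that expresses the origin recognition complex subunit ORC1 with a 3xFLAG tag. RNA bound to tagged ORC1 was recovered from sonicated nuclear lysates, without crosslinking, with the M2 FLAG antibody (IP, 2 libraries) and compared with RNA of the same lysates before recovery (Input, 2 libraries). Every library, Input included, came from cells that carried the plasmid, and a FLAG recovery from cells without tagged ORC1 was not analysed here. The labels number the IP and Input of each experiment alike, and do not say whether the experiments were separate cultures.

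The IP of replicate 1 held 27483148 counts and that of replicate 2 20280445, while the Inputs held 14677002 and 9213877. ORC1 itself was 16.8 times higher in the replicate 2 IP than in the replicate 1 IP and 15.2 times higher between the Inputs. The ORC1 of the plasmid is codon-optimized, so how much of its RNA is counted with the chromosomal gene is not known. The replicates thus differ widely in the ORC1 RNA that was counted. The part of this difference in the values below was not tested. Of 11 markers fixed for a colon epithelial line, KRT8, KRT18, KRT19 and EPCAM were abundant, VIL1 had 9 counts in all and LGALS4 none. In the lists for other cell types, DCN, LUM, CD3E, LYZ and PECAM1 had no count, and COL1A1 had 1184.

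Levels are given as counts relative to the library total (CPM), scaled with TMM factors, which set the libraries' central genes equal. The log2 ratio of a replicate is log2 of its IP level over its Input level, each with 0.5 CPM added. A value below 0 means that less of the mRNA was recovered with ORC1 than of the central gene, not that none was bound.

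The most abundant member was SLC38A2, a sodium-coupled carrier of neutral amino acids, with 706 and 489.9 scaled CPM in the IP of replicates 1 and 2 and 586 and 759 in their Inputs. SLC7A5 stood at 424 and 416 scaled CPM in the IP and 678 and 646 in the Input. Its heavy chain SLC3A2, which carries SLC7A5 to the cell surface, was at 399.5 and 440.3 in the IP and 289 and 388 in the Input. SLC7A5 was thus lower in both IP libraries than in both Inputs, SLC3A2 was higher in both IP libraries, and the groups overlapped for SLC38A2. SLC1A5, a carrier of glutamine and other neutral amino acids, had 386 and 311 scaled CPM in the IP and 360.3 and 346 in the Input, and SLC20A1, a sodium-phosphate cotransporter, 334 and 307 in the IP and 354 and 349 in the Input. SLC16A1, a carrier of lactate and pyruvate, had 262 and 196 in the IP and 246 and 232 in the Input. These 3 mRNAs were recovered at nearly the level of the Input. Per kilobase of exonic length, the mean Input level was highest for SLC7A5, at 139 CPM per kilobase, followed by SLC1A5 at 106 and SLC38A2 at 103, and lowest for SLC22A5, a carnitine carrier, at 0.7697.

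**Figure D1:**
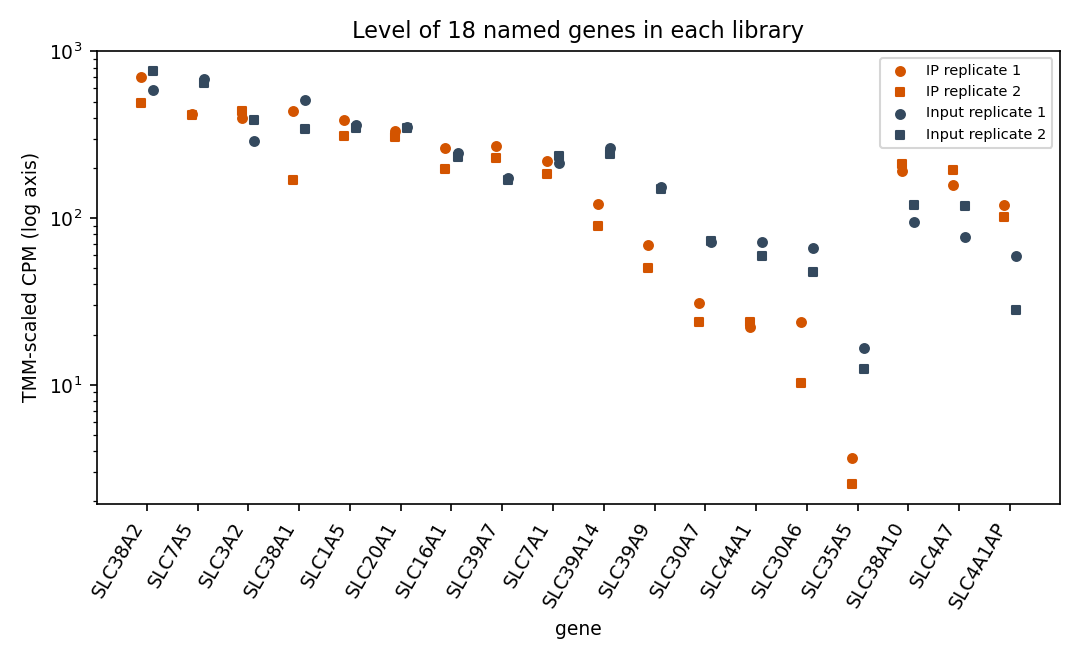
Scaled CPM (log axis) of 18 named genes in each of the 4 libraries, IP in orange and Input in dark blue, circles for replicate 1 and squares for replicate 2. From SLC39A14 to SLC35A5 the IP points lie below both Input points, and for SLC38A10, SLC4A7 and SLC4A1AP both IP points lie above both Input points.

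Across the 121 members the median log2 ratio was -0.24 in replicate 1 and -0.37 in replicate 2. The 9399 other protein-coding genes with 500 or more counts had medians of 0.21 and 0.13. The ratio was below 0 in both replicates for 82 members, above 0 in both for 21 and of mixed sign for 18. For 62 members (51.2%) both IP libraries lay below both Input libraries, beside 29.0% of the other genes, and for 13 (10.7%) both lay above, beside 42.8%. Replicate ratios of the members followed each other, with Pearson's r of 0.86 and Spearman's rho of 0.85 across 121 genes, which share the same 4 libraries and are not independent replicates.

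In edgeR's quasi-likelihood fit to all 14645 genes, enriched and depleted calls needed a log2 fold change of IP over Input beyond 1 in size, together with an adjusted p (Benjamini-Hochberg over all genes) under 0.05. Over all genes tested 10.5% were called enriched and 8.3% depleted. Among the members 2 (1.65%) were called enriched and 16 (13.2%) depleted, beside 15.3% and 8.70% of the other protein-coding genes with 500 or more counts. Both enriched members, SLC4A1AP and SLC7A6OS, were among the 3 that are not carriers. Of the 118 carriers none was called enriched by edgeR, DESeq2 or limma voom, and 8 had a positive log2 fold change at an unadjusted p below 0.05 in edgeR, 4 in DESeq2 and 7 in limma voom, the highest in edgeR being SLC38A10 at 0.92 ± 0.25 (SE, n = 2 per group). With the replicate as a block, which raised the background to 13.4% enriched and 13.4% depleted, 2 members were called enriched and 15 depleted. When 1 library was left out, between 10 (without IP replicate 2) and 14 of the 16 depleted members were still called, and 1 carrier was called enriched without IP replicate 2 (SLC27A2), without Input replicate 1 (SLC1A3) and without Input replicate 2 (SLC4A7).

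Recovery rose with coding length in these libraries, so each member was also set against the 200 other protein-coding genes nearest to it in coding length. Members had a median coding length of 1572 bases, from 438 (SLC48A1) to 3777 (SLC4A7), near the 1500 bases of the other genes. Across genes, Spearman's rho of the mean log2 ratio with coding length was 0.36 over the 121 members and 0.62 over the 9399 others. Between 1000 and 1500 bases the median log2 ratio was -0.50 for 34 members and -0.031 for the others, and between 1500 and 2000 bases -0.35 for 49 members and 0.22 for the others. Between 2000 and 3000 bases the medians were -0.16 for 18 members and 0.52, and at 3000 bases or more 0.24 for 9 members and 0.97. Long carrier mRNAs thus had higher ratios than short ones, at a lower level than other mRNAs of their length. At 3000 bases or more 45.9% of the other genes were called enriched, and none of the 9 members was. Below 1000 bases the medians were close, -0.61 for 11 members and -0.51 for the others.

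**Figure D2:**
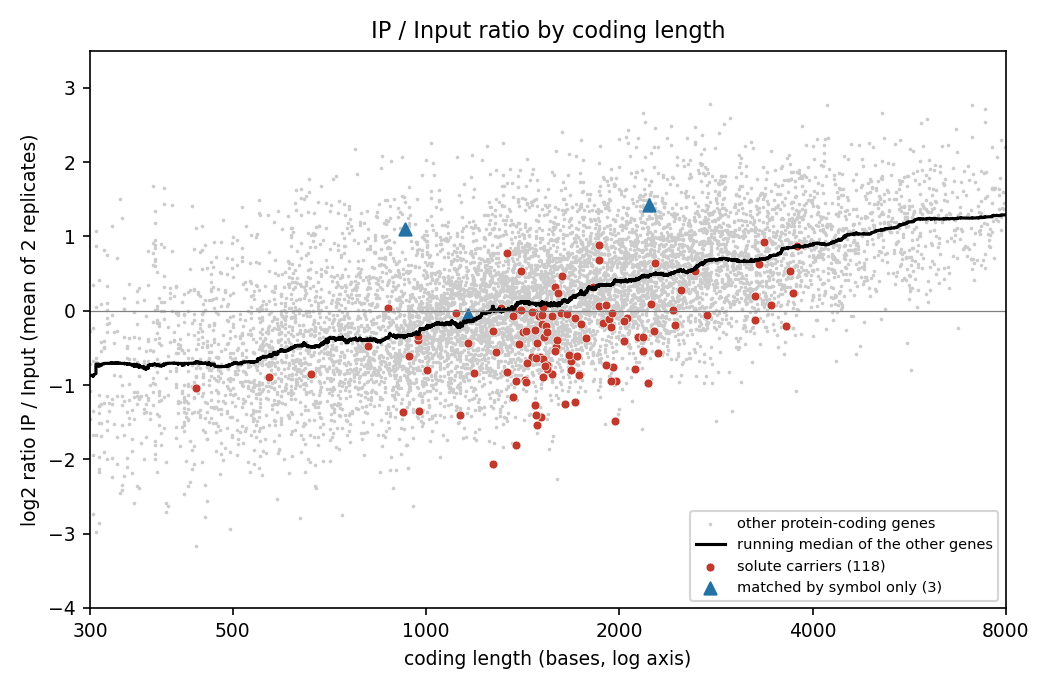
Mean log2 ratio of IP to Input over the 2 replicates (vertical axis) against coding length in bases (log axis), with other protein-coding genes in grey, their running median as a black line, the 118 carriers in red and the 3 genes matched by symbol only as blue triangles. Most red points between 1000 and 4000 bases lie below the line, and 2 of the 3 triangles lie well above it.

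The difference between a member's log2 ratio and the median of its neighbours had a median of -0.50 in replicate 1 and -0.57 in replicate 2. It was negative in both replicates for 97 members (80.2%), beside 42.3% of the other genes, positive in both for 13 and of mixed sign for 11. In the mean of both replicates 44 members (36.4%) fell in the lowest 10% of their neighbours, beside 9.87% of the other genes. The 2 members in the highest 10% were SLC4A1AP and SLC7A6OS. A factor that scales a whole library cancels in this difference.

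**Figure D3:**
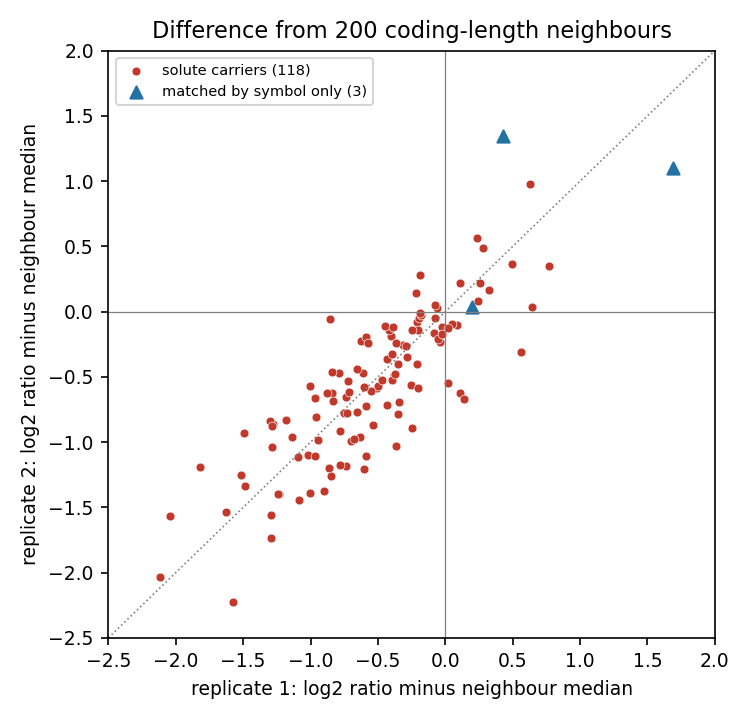
Each gene's log2 ratio minus the median of its 200 coding-length neighbours, replicate 1 on the horizontal and replicate 2 on the vertical axis, with the 118 carriers in red, the 3 genes matched by symbol only as blue triangles and equal values on the dotted line. The lower left quadrant holds 97 genes, all carriers.

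SLC35A5, a member of the nucleotide sugar carrier family of the Golgi, had the lowest mean ratio of all members. It stood at 3.65 and 2.56 scaled CPM in the IP and 16.6 and 12.5 in the Input, a log2 fold change of -2.22 ± 0.32 (SE, n = 2 per group), with an edgeR adjusted p of 0.0107. This gene, SLC7A6OS, SLC22A5, SLC27A2 and the others of the 16 depleted members that the naming rule had not picked (SLC19A2, SLC36A4, SLC35A3, SLC17A5, SLC33A1, SLC48A1 and SLC2A13) are named because of their values. Its relative SLC35A3, which carries UDP-N-acetylglucosamine, had 7.01 and 7.395 scaled CPM in the IP and 21.99 and 16.8 in the Input. SLC35A2, the UDP-galactose carrier, had log2 ratios of -0.97 and -0.70, and SLC35A4 of -0.49 and -0.29. In all 4 SLC35A members, grouped here as nucleotide sugar carriers, both IP libraries lay below both Inputs, and 2 were called depleted. The symbol pattern leaves out SLC35 genes with a letter other than A.

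Substrate groups were assigned by gene family, so a single member may carry something other than the name of its group says. Calls of each group, those of the nucleotide sugar carriers included, stand beside 8.3% depleted and 10.5% enriched over all genes tested. Of the other protein-coding genes 25.1% were called depleted under 1000 coding bases and 5.91% between 1000 and 1500. Between 1500 and 2000 bases the share was 1.82%, and between 2000 and 3000 bases 0.48%. The 17 zinc carriers held 5 of the 16 depleted members (29.4% of the group). Most SLC30A proteins move zinc out of the cytosol and most SLC39A proteins move it in. Of 6 SLC30A mRNAs 3 were called depleted, with family medians of -0.91 and -1.19 for the log2 ratio in replicates 1 and 2, and all 6 lay below their coding-length neighbours in both replicates. SLC30A6, a Golgi zinc carrier, had 23.9 and 10.2 scaled CPM in the IP and 65.9 and 47.8 in the Input, a log2 fold change of -1.73 ± 0.41 (SE, n = 2 per group; edgeR adjusted p of 0.0272). SLC30A7 had 30.8 and 23.7 in the IP and 72.1 and 73 in the Input, and SLC30A9 33.7 and 22.02 in the IP and 81.3 and 51.6 in the Input. For each of the 3 the groups were fully apart.

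Of 11 SLC39A mRNAs 2 were called depleted, with family medians of -0.28 and -0.39 for the log2 ratio. SLC39A14, a carrier of zinc, iron and manganese, had 121 and 89.3 scaled CPM in the IP and 263 and 242 in the Input, and SLC39A9 69.1 and 50.2 in the IP and 154 and 150.5 in the Input. SLC39A7, which releases zinc from the endoplasmic reticulum, was higher in both IP libraries than in both Inputs, with 271 and 229 in the IP and 175 and 169 in the Input. Its log2 fold change of 0.54 ± 0.24 (SE, n = 2 per group) was not called (edgeR adjusted p of 0.143), and its log2 ratio lay 0.50 and 0.37 above its neighbours. The family therefore ran from well below to above the Input. Without IP replicate 2, SLC39A14 (adjusted p of 0.0957), SLC39A9 (0.0606) and SLC30A9 (0.0984) missed the threshold of the edgeR test, and SLC30A9 had a log2 fold change of -0.85, short of 1 in size, without Input replicate 1.

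The 25 amino acid carriers had median log2 ratios of -0.20 and -0.44, and 1 was called depleted. This was SLC36A4 with 4.802 and 4.38 scaled CPM in the IP and 16.3 and 10.7 in the Input. In both replicates 19 of the 25 lay below their coding-length neighbours and 3 above. The most abundant of them, SLC38A2, differed in sign between replicates, with log2 ratios of 0.27 and -0.63, and SLC38A1 had -0.22 and -1.02. SLC38A10, a longer member of the same family, had the highest mean ratio of the carriers, at 191 and 213 scaled CPM in the IP and 94.3 and 119 in the Input, and lay 0.26 and 0.22 above its neighbours. Its log2 fold change of 0.92 ± 0.25 (SE, n = 2 per group) had an edgeR adjusted p of 0.0377 but did not reach 1. SLC1A3, a glutamate carrier, had log2 ratios of 0.39 and 0.54 and SLC7A1, a carrier of arginine and lysine, of 0.042 and -0.37. SLC7A2, of the same arginine and lysine group, was lower, at -0.71 and -1.19.

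SLC3A2 pairs with light chains of the SLC7A family, which do the transport, whereas SLC3A2 itself has 1 membrane segment and a large outer domain. Its log2 ratios were 0.47 and 0.18, and those of SLC7A5 -0.68 and -0.63. The cystine and glutamate exchanger SLC7A11 had -0.38 and -0.88 and SLC7A6 -0.58 and -0.87. SLC7A8 differed in sign between replicates, at 0.74 and -0.27, with 123 to 252 counts a library. Against their coding-length neighbours SLC3A2 lay 0.32 and 0.17 above, and SLC7A5, SLC7A6 and SLC7A11 below in both replicates. The heavy chain and these 3 light chains thus lay on opposite sides of genes of their own length. None of the 5 was called by edgeR, with adjusted p from 0.0533 (SLC7A6) to 0.683 (SLC7A8).

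The 18 carriers of inorganic ions (the SLC4A, SLC9A, SLC12A, SLC24A and SLC26A families) had no call in either direction, with median log2 ratios of 0.12 and -0.029. Their median coding length of 2684 bases was the highest of the substrate groups, and 13 of 18 lay below their coding-length neighbours in both replicates. The 4 SLC4A anion exchangers and bicarbonate cotransporters were all above 0 in both replicates. SLC4A7, a sodium-bicarbonate cotransporter, had 159 and 194 scaled CPM in the IP and 76.9 and 119 in the Input, and SLC4A2, an anion exchanger, 207 and 165 in the IP and 183 and 134 in the Input. Set against genes of their length they were no longer high, at 0.05 and -0.093 for SLC4A7 and -0.79 and -0.47 for SLC4A2. The 6 SLC12A cation-chloride cotransporters lay below their neighbours in both replicates, with medians of -0.70 and -0.75. SLC26A6, an exchanger of chloride with other anions, had log2 ratios of 0.79 and 0.50 and stood 0.24 and 0.082 above its neighbours.

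Among 10 nucleoside, vitamin and heme carriers 3 were called depleted, and all 10 lay below their coding-length neighbours in both replicates. They were SLC19A2, a thiamine carrier, SLC29A1, the main equilibrative nucleoside carrier, and SLC48A1, a heme carrier. SLC19A2 stood at 6.68 and 7.17 scaled CPM in the IP and 20.05 and 21.99 in the Input. SLC29A1 had 38.9 and 35.8 in the IP and 104 and 68.1 in the Input, and missed the threshold without IP replicate 2 (edgeR adjusted p of 0.0503) and, at a log2 fold change of -0.82, without Input replicate 1. SLC23A2, a vitamin C carrier, differed in sign between replicates, at 0.18 and -0.26. SLC48A1 has the shortest coding sequence of the members, and its log2 ratios of -1.0 and -1.08 lay -0.21 and -0.40 from its neighbours, which were low as well.

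Of 7 lipid and acyl carriers 2 were called depleted. SLC44A1, a choline carrier, had 22.3 and 23.7 scaled CPM in the IP and 72.2 and 59.3 in the Input, a log2 fold change of -1.52 ± 0.23 (SE, n = 2 per group; edgeR adjusted p of 0.0108). SLC33A1, the acetyl-CoA carrier of the endoplasmic reticulum, had 16.1 and 16.95 in the IP and 41.3 and 39.4 in the Input. SLC44A2 was lower in the IP as well, with log2 ratios of -0.87 and -0.70, and was not called. The 4 SLC27A fatty acid transport proteins, which are acyl-CoA synthetases with few membrane segments, had higher medians of 0.50 and 0.081, and SLC27A4 had -0.057 and -0.16. Lipid carriers thus ranged from among the lowest to among the highest members.

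The 7 monocarboxylate carriers of the SLC16A family had no call and lay below their coding-length neighbours in both replicates, with median differences of -0.25 and -0.47. SLC16A3, which exports lactate, had 179.6 and 196 scaled CPM in the IP and 249.7 and 261 in the Input. Of 13 members of the families grouped as sugar and polyol carriers, 12 lay below their neighbours in both replicates. The 1 called depleted was SLC2A13, a carrier of myo-inositol (edgeR adjusted p of 0.0465). It was not called with the replicate as a block, where its log2 fold change was -0.99. SLC2A1 had 153 and 187 in the IP and 179.9 and 226 in the Input, and SLC37A3 had log2 ratios of -0.62 and -0.66. The groups overlapped for SLC2A1 and did not for SLC37A3.

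Of the smaller groups, the 5 carriers of other metals had no call, with SLC31A1, the copper importer, at log2 ratios of -0.52 and -1.27 and SLC41A1, a magnesium carrier, at -0.19 and -0.23. Of 5 phosphate and vesicular carriers 1 was called depleted, the lysosomal sialic acid exporter SLC17A5, at 19.1 and 12 scaled CPM in the IP and 44.5 and 37.9 in the Input. SLC20A2, the second phosphate carrier, had log2 ratios of -0.48 and -1.04. Of 5 organic ion and bile acid carriers 1 was called depleted, SLC10A3, with log2 ratios of -1.14 and -0.77. SLC10A3 was not called by DESeq2 (log2 fold change of -1.01, DESeq2 adjusted p of 0.0818). It was not called by edgeR without IP replicate 1 (log2 fold change of -1.05), without IP replicate 2 (-0.91) or without Input replicate 1 (-0.69). SLC22A23 stood at -0.038 and -0.17. SLC66A1 and SLC66A2, to which no group was assigned, had log2 ratios of 0.0085 and 0.075 (SLC66A1) and -0.49 and -0.45 (SLC66A2).

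Of the 3 genes that match the symbol pattern without being carriers, SLC4A1AP and SLC7A6OS were called enriched and SLC2A4RG was not called. SLC4A1AP had 120.1 and 101 scaled CPM in the IP and 58.9 and 28.2 in the Input, a log2 fold change of 1.34 ± 0.36 (SE, n = 2 per group; edgeR adjusted p of 0.0392). Without Input replicate 2, which held its lowest level, the log2 fold change was 0.76 and was not called (adjusted p of 0.0879). SLC7A6OS had 20.1 and 17.1 in the IP and 7.22 and 9.67 in the Input, a log2 fold change of 1.14 ± 0.26 (SE, n = 2 per group; edgeR adjusted p of 0.0248). SLC7A6OS and SLC7A6 lie on opposite strands of chromosome 16, and 64.5% of the exonic bases of the first and 55.6% of those of the second overlap opposite-strand genes. The strand setting of the counting is not given in the sources used here, so reads of the pair may not be told apart, although their ratios had opposite signs. SLC2A4RG, the third, had log2 ratios of 0.027 and -0.15 and lay 0.20 and 0.036 above its neighbours. Without these 3 genes the median difference from coding-length neighbours was -0.55 in place of -0.54.

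Beyond the rule, most of the carriers resembled each other in their coding sequence. Hydrophobic segments were counted as windows of 19 residues, without overlap, whose mean Kyte-Doolittle hydropathy was 1.6 or more. Members had a median of 8 such segments, beside 0 for other protein-coding genes, and 110 of the 118 carriers had 4 or more. The 3 genes that are not carriers had 0. These windows measure hydropathy and are not a count of membrane helices. T stood at the second position of 35.9% of codons (median over members), beside 26.3% in the other genes, and A at 21.8%, beside 32.1%. Lysine and glutamate made up 7.99% of residues, beside 13.2%.

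The stretches below show the T-rich second positions in the letters. For 5 carriers they encode the most hydrophobic 19 residues that lie in 1 exon. They are the coding strand of the canonical GENCODE v44 transcript, 5′ to 3′, with the second base of each codon in capitals. T stands at 12 to 13 of the 19 second positions in these carriers.
SLC35A5 (lowest mean ratio): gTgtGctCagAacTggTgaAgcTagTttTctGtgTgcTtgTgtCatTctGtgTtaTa
SLC44A1 (choline carrier, depleted): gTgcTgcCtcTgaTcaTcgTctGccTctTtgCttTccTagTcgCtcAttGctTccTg
SLC7A5 (most abundant per length): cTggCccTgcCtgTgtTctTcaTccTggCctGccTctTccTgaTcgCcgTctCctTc
SLC38A10 (highest mean ratio of the carriers): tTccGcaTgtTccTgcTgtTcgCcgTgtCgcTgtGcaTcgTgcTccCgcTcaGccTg
SLC3A2 (heavy chain, 1 segment): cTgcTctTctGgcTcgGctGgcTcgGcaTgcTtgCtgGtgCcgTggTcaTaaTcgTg

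In build GRCh38 these coding exon stretches lie at chr3:112569206-112569262 (plus strand, exon 3 of SLC35A5), chr9:105383195-105383251 (plus strand, exon 14 of SLC44A1), chr16:87834529-87834585 (minus strand, exon 9 of SLC7A5), chr17:81282264-81282320 (minus strand, exon 5 of SLC38A10) and chr11:62881279-62881335 (plus strand, exon 1 of SLC3A2). Since each stretch was chosen by its hydrophobicity, its many T at the second position follow from that choice. The counts themselves were made by the authors on hg19, and no coordinate of that build is given.

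The other protein-coding genes lay further below their coding-length neighbours the more hydrophobic segments they encoded. With 0 segments (6614 genes) their median differences were 0.086 and 0.11 in replicates 1 and 2, with 2 or 3 segments (744 genes) -0.25 and -0.31, and with 10 or more (53 genes) -0.64 and -0.63. The members had medians of -0.75 and -0.70 with 4 to 6 segments (26 genes), -0.42 and -0.52 with 7 to 9 (49 genes) and -0.59 and -0.63 with 10 or more (35 genes). Other genes of these classes had -0.49 and -0.47 (298 genes), -0.63 and -0.61 (137 genes) and the values already given. The 8 carriers with up to 3 segments, among them SLC3A2 and the SLC27A genes, had -0.037 and -0.32, and 4 of the 8 lay below their neighbours in both replicates. Over the 9399 others, Spearman's rho of the difference with the number of segments was -0.22 and -0.27. It was larger in size with the share of lysine and glutamate (0.39 and 0.49) and of A at the second codon position (0.35 and 0.45). Over the 118 carriers the values were -0.082 and -0.081 for segments, 0.031 and -0.10 for lysine and glutamate, and -0.066 and -0.18 for A. What part each feature has was not tested.

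Set against the 50 genes nearest in coding length among 488 others with 4 or more segments, the 110 carriers with 4 or more had median differences of 0.015 and -0.044, with 47 below in both replicates and 44 above in both. Solute carriers were therefore placed about midway among other mRNAs of multi-segment membrane proteins, and the low position against genes of all kinds was not particular to them in this description. This comparison was added after the values were seen.

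**Figure D4:**
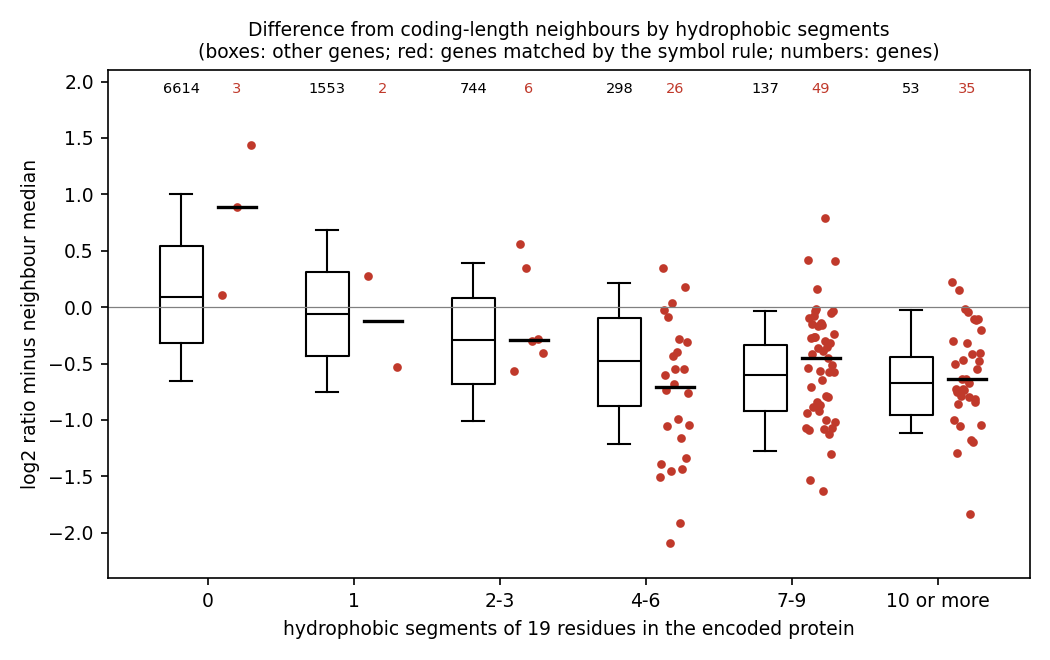
Log2 ratio minus the median of 200 coding-length neighbours (vertical axis) by the number of hydrophobic segments, with other protein-coding genes as boxes (quartiles, whiskers from the 10th to the 90th percentile), members as red points with their median as a bar, and the number of genes above each. Medians of the other genes fall from 0.091 with 0 segments to -0.67 with 10 or more, and the members with 4 or more segments spread around the medians of other genes of their class.

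Other families of membrane proteins also had medians below genes of their length. The 32 SLC25A mitochondrial carriers had median differences of -0.37 and -0.40 from their coding-length neighbours, with 24 below in both replicates, 5 called depleted and none enriched. The 24 ABC transporters, whose coding sequences are long (median 3188 bases), had median log2 ratios of 0.53 and 0.19 and differences of -0.27 and -0.42, with 5 called enriched and none depleted. The 100 TMEM genes, named only for holding a membrane segment, had differences of -0.58 and -0.50, close to the members, with 41 called depleted and 1 enriched. SLC25A and TMEM coding sequences are short, with medians of 943.5 and 889.5 bases. Of the other protein-coding genes under 1000 coding bases 25.1% were called depleted and 3.53% enriched. At 3000 bases or more 45.9% were called enriched and none depleted. Over all genes tested the shares were 8.3% depleted and 10.5% enriched. No test was made between the families.

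Members varied with base composition. Across the 121, Spearman's rho of the difference from neighbours with coding GC content was 0.31 in replicate 1 and 0.49 in replicate 2, beside 0.0044 and -0.085 over the 9399 other genes. The 39 carriers of lowest GC content (36.8% to 50.5%) had median differences of -0.73 and -0.96 and 11 depleted calls. The 39 of highest GC content (60.3% to 67.6%) had -0.37 and -0.26 and 2 depleted calls. SLC35A5, SLC30A6 and SLC44A1, with 41.7%, 40.6% and 44.8% GC, were in the first group, and SLC38A10, with 64.5%, in the last. The depleted calls were 28.2% of the first group and 5.13% of the last, and neither held an enriched call. Of the 3133 other protein-coding genes of lowest GC content, 10.2% were called depleted and 21.4% enriched. Of the 3133 of highest GC content, 6.13% were called depleted and 8.46% enriched. Depleted calls were thus more frequent at low GC content among the other genes too, and so were enriched calls. Carriers with a longer noncoding part of the transcript also lay lower, with a rho of -0.30 and -0.49 over the members and -0.18 and -0.23 over the others. With neighbours matched on coding length and GC content together the median difference of the members was -0.50, beside -0.54. What part GC content or transcript length has in the ratios was not tested.

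GAAGAAGAA, a run of 3 GAA codons or of the same letters in another frame, was searched on the coding strand because GAA repeats were a feature of interest in the study. It stood in the coding sequence of 8 of 121 members (6.61%), beside 14.1% of the other genes. The 8 were SLC38A2, SLC39A7, SLC26A6 and, named for this match, SLC26A2, SLC4A3, SLC9A8, SLC39A6 and SLC39A11. Their log2 ratios ran from -0.70 and -1.25 (SLC26A2) to 0.79 and 0.50 (SLC26A6), so holding the letters did not place a carrier on one side. SLC4A1AP and SLC7A6OS, the enriched members, did not hold it in their coding sequence. The untranslated parts of the transcripts were not searched. The study looked for motifs in whole transcripts and reported GAA repeats in most RNAs recovered with tagged ORC1. The counts given here are therefore a different measure.

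Of 26 genes listed for the insertion of membrane proteins, such as subunits of the Sec61 channel, the signal recognition particle receptor and the EMC complex, 10 were called depleted and none enriched, beside 8.3% and 10.5% of all genes tested. Most of these coding sequences are short, and 25.1% of the other protein-coding genes under 1000 coding bases were called depleted. The median log2 fold change of the list was -0.70, beside 0.17 for the other protein-coding genes, while against coding-length neighbours the median difference of the 23 genes with 500 or more counts was -0.42 in replicate 1 and -0.12 in replicate 2. SEC61A1, the pore of the channel, had 248 and 181 scaled CPM in the IP and 403 and 313 in the Input. CCDC47, part of an insertion complex for multi-helix proteins, was higher in the IP, at 474 and 429 beside 253 and 201, with a log2 fold change of 0.99 ± 0.26 (SE, n = 2 per group) just under the limit. With the replicate as a block 2 genes of the list were called enriched in edgeR, CCDC47 (log2 fold change of 1.00, adjusted p of 0.000129) and, named for this call, EMC2 (1.10, adjusted p of 0.000267). SEC61A1 and CCDC47 thus lay on opposite sides of the Input.

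Among 15 genes listed as partners of carriers or as related proteins, 13 were tested. Of these 2 were called depleted and none enriched, beside 8.3% and 10.5% of all genes tested. With the replicate as a block ARL6IP1, named for this change, was called depleted as well (log2 fold change of -1.11, edgeR adjusted p of 4.67e-05). BSG, the partner that brings SLC16A1 and SLC16A3 to the cell surface, had 416 and 351 scaled CPM in the IP and 487 and 427 in the Input. BSG lay -0.058 and -0.073 from its coding-length neighbours, closer to 0 than the member median.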

How the data were processed

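Reads of 2 FLAG IP and 2 Input libraries (TruSeq stranded total RNA) were processed by the authors, who trimmed them with Trimmomatic, aligned them with STAR to hg19 (GRCh37), removed reads on GL contigs and counted reads per Ensembl gene with featureCounts. The deposited values are these raw counts per gene, without normalization. The annotation release and the strand and multi-mapping settings are not given in the sources used here. Genes were joined to GENCODE v44 by Ensembl identifier, and 52181 of 63677 matched. Symbols, coding sequences and lengths come from that annotation (GRCh38).

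Counts were fitted in R 4.3.3 with edgeR 4.0.16 (TMM factors, filterByExpr, robust quasi-likelihood test on group, Benjamini-Hochberg over 14645 genes). Alternatives were RLE, upper quartile and plain library size scaling, other count filters, the replicate number as a block, each library left out, DESeq2 1.42.0 and limma voom 3.58.1. The fit was tested on simulated data. IP and Input of an experiment share a number in the labels, and their deviations from the group means correlated at 0.65 over 14645 genes. The replicate ratios and the differences from neighbours used the numbers as pairs. The edgeR test behind the calls, fold changes and adjusted p did not, and neither did DESeq2 or limma voom. Of the fits, only that with the replicate as a block took the pairing into account. p-values measure the spread between 2 libraries a group, which may be technical. Ratios used a pseudocount of 0.5 CPM. Neighbours were the 200 protein-coding genes closest in log2 coding length with a summed count of 500 or more, from a pool of 9367 that held no member and no SLC25A gene.

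The members, the substrate groups and the gene lists were chosen with earlier results of these data known. Genes were named by rule as the 10 of highest count, the 5 of highest and lowest ratio and difference from neighbours among those with 2000 counts or more, the 2 of highest count in each group and list, those at the count limit, and SLC3A2 with its SLC7A partners. Others are said to be named for their values. Some results are not reported here.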

Additional observations from a re-analysis of the deposited data

How the results depend on the processing

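Of the 2 enriched calls among the members, 1 was left with RLE size factors, 1 with upper quartile scaling and 0 with library size scaling, between 1 and 3 with 1 library left out, and 0 without the 3 genes that are no carriers. The 16 depleted calls became 50 with library size scaling and 26 with upper quartile scaling, and 12 to 23 with 1 library left out. These 2 scalings moved the median of all genes by -0.60 and -0.17 on the log2 scale, and the median log2 ratio of the members from -0.34 to -0.93 and -0.51. The median difference from coding-length neighbours, -0.54, lay between -0.60 and -0.46 with 1 library left out, was -0.48 at a count limit of 200 and -0.63 at 2000, and turned to 0.012 against 50 neighbours with 4 or more hydrophobic segments, an alternative chosen after the data were seen. With the replicate block 2 enriched and 15 depleted members were called, and SLC2A13 was the depleted call lost. DESeq2 called 2 enriched and 13 depleted members, and limma voom 2 and 15. SLC4A1AP was no longer called with RLE size factors (log2 fold change of 1.30, edgeR adjusted p of 0.0552). Over 42 named genes no log2 fold change that was called in the main fit turned its direction under these alternatives. Log2 fold changes not called there could turn. That of SLC1A3 was 0.44 in the main fit, -0.17 with library size scaling, 1.05 without Input replicate 1 and -0.11 without Input replicate 2. Each group held 2 libraries, and 1 where a library was left out, which is then assumed to vary like the other group. Differences between carriers were not tested.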
